A study of Mus musculus with 12 samples.

Results

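Wdfy1, Nnt, Entpd4, Ide, Fgfbp3, Cd59a and Gt(ROSA)26Sor are 7 of the 14909 genes counted in the frontal cortex of Upf3b-null and wild-type mice. They were picked by symbol because their levels stepped sharply between the genotypes and because differences between C57BL/6 substrains or colonies are a known source of such steps. The values that chose them are the knockout and wild-type levels themselves, so those levels are described here and not tested. Frontal cortex RNA was sequenced from 5 mice labelled UPF3B KO (mice 1, 2, 3, 4 and 6) and 7 labelled wildtype (mice 1 to 7), all given as C57BL/6. The labels state no age, sex, substrain, colony or kind of null allele, and no genotype at these 7 loci was read. Background differences and the loss of Upf3b, which codes for a factor of nonsense-mediated mRNA decay, therefore cannot be told apart at any single gene.

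C57BL/6 mice have been bred as separate substrains for many decades, and small mutations and copy number changes have been fixed in some colonies and not in others. The best known is in Nnt, the mitochondrial transhydrogenase that makes NADPH: C57BL/6J mice lack a block of its internal exons, while C57BL/6N mice keep them. A duplicated segment that holds Ide and Fgfbp3 is also known to vary among C57BL/6J mice. When a mutant line and its controls come from different colonies, such variants can follow the genotype label. Gt(ROSA)26Sor, a noncoding RNA gene, is a site often used for targeted insertion of transgenes in mice.

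The reference sequence shows how far reads of each gene can be assigned. Entpd4 codes for a Golgi and lysosomal enzyme that hydrolyses nucleoside diphosphates and triphosphates, and its transcript Entpd4-206 in GENCODE M21 (GRCm38, the mm10 assembly) is 3589 bases long. All 3540 of its 50-base windows, 100%, also occur in Entpd4b, a second copy on chromosome 14, and the full-length transcripts of the copies differ at 0 bases. No read inside these exons can be told apart between the copies, so the Entpd4 count may hold reads of both. Entpd4b was not analysed here. On the opposite strand, 1239 of the Entpd4 windows (35%) also occur in Gm16867 and 1197 (33.8%) in Gm27177. If strand was not used in counting, reads of those genes may be in the Entpd4 count too. Cd59a, which codes for a membrane-anchored inhibitor of the complement membrane attack complex, shares 70 of 1642 windows (4.26%) with its neighbour Cd59b, and their coding sequences are 85.0% identical over 354 aligned bases. The first coding bases are shown, 120 for the identical pair once, 120 for Cd59a and the 117 of Cd59b that align with them, with capitals at bases that differ from the paralog or have no partner in it.
Entpd4 and Entpd4b: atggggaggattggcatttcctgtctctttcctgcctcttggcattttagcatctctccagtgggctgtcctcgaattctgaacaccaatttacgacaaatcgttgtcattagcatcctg
Cd59a: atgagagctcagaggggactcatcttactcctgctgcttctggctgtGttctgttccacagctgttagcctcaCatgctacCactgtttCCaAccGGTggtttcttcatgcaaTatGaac
Cd59b: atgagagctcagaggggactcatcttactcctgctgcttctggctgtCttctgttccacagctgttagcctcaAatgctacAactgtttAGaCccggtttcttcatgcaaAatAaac

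The transcripts looked up for Nnt, Ide, Fgfbp3 and Gt(ROSA)26Sor shared 0 windows with transcripts of any other gene. That of Wdfy1 shared 17 of 4502. Exons of Gt(ROSA)26Sor and of Thumpd3, a gene on the opposite strand, overlap over 145 bases, which is 8.55% of the exonic bases of Gt(ROSA)26Sor. The strand setting of the counting is not given, so reads from that stretch may have been counted for either gene.

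Library totals ran from 4990643 to 6617759 counts in KO and from 4684039 to 5425774 in WT, so 4 of the 5 KO libraries were deeper than every WT library. KO 1 had the lowest total among the KO libraries. Upf3b averaged 2.76 ± 0.877 CPM (counts scaled by library total and TMM factor) in KO and 38.3 ± 2.48 CPM in WT (SD, n = 5 and 7). An exact two-sided permutation test of Upf3b gave p = 0.00126, which is the lowest p that 792 arrangements allow. All 6 markers each of neurons, astrocytes, oligodendrocytes, microglia and endothelium were above 0 in both groups. The summed neuron markers were at 1752 to 2142 CPM in KO and 2028 to 2281 CPM in WT, with 5 of the 6 called lower in KO by edgeR and 1 of the 6 with offsets for counts per exonic base. Of the 6 markers each, 2 of astrocytes, 3 of oligodendrocytes and 3 of microglia were also called lower and none higher (1, 0 and 3 lower with those offsets, and 1 of astrocytes higher), and of endothelium 2 were higher and 1 lower (none with the offsets). Their part in the results was not tested. Of 14274 tested genes, 2183 were higher in KO and 2050 lower with edgeR's quasi-likelihood test at an adjusted p under 0.05. With the log2 library total as a covariate those counts were 84 and 11, or 0.666% of the tested genes. The total largely follows the genotype here, so the covariate also lowers the power to call genes. Counts with it cannot tell depth from genotype. In bulk tissue, fewer cells of a type and less RNA per cell cannot be told apart.

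All 7 genes passed the filter on low counts. In KO, 3 of them were higher (Wdfy1, Nnt and Cd59a) and 4 were lower (Entpd4, Ide, Fgfbp3 and Gt(ROSA)26Sor). No KO library overlapped a WT library for any of the 7, the property that chose them. Of all tested genes 10.6% were likewise free of overlap (5.84% with KO above WT and 4.8% with KO below). By edgeR 29.7% were called in either direction, 15.3% higher and 14.4% lower.

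Wdfy1 codes for an endosomal protein with WD repeats and a FYVE domain that takes part in Toll-like receptor signalling. It lies on chromosome 1 at 79702262 to 79776143 of mm10, on the minus strand. Its level was 89.2, 104, 93.3, 101 and 95.01 CPM in KO 1, 2, 3, 4 and 6, against a lowest, median and highest of 32.1, 33.4 and 37.0 CPM in WT. The KO libraries lay together, and the lowest of them was 52.1 CPM above the highest WT library. KO over WT was 2.84-fold, with a log2 fold change of 1.51 ± 0.05 (SE), the 20th largest among all tested genes in either direction.

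Cd59a, on the plus strand of chromosome 2 at 104095753 to 104115410, had 22.7, 31.0, 27.1, 25.1 and 17.0 CPM in the KO libraries in the same order, against 7.70, 9.41 and 11.8 CPM as lowest, median and highest in WT. The gap between the groups was 5.13 CPM, set by KO 6 and WT 6. Counts behind these levels were low, with 103 to 199 in KO and 36 to 61 in WT. The log2 fold change was 1.34 ± 0.14 (SE).

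Nnt lies on the minus strand of chromosome 13 at 119335527 to 119409257. It had 64.2, 65.2, 62.0, 66.6 and 50.4 CPM in the KO libraries, against 29.7, 33.2 and 37.9 CPM as lowest, median and highest in WT. KO 6 stood below the other KO libraries, yet still 12.5 CPM above the highest WT library. The log2 fold change was 0.85 ± 0.08 (SE), or 1.81-fold. A count per gene does not show which exons its reads came from. The levels therefore do not tell whether the exons that C57BL/6J mice lack were present in either genotype. WT mice were not without Nnt reads, with 139 to 189 counts in each WT library and 306 to 433 in each KO library.

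Entpd4, on the plus strand of chromosome 14 at 69337151 to 69366742, was at 113, 110, 120, 113 and 115 CPM in the KO libraries, against 190, 204 and 233 CPM as lowest, median and highest in WT. This was the tightest KO group of the 7 genes, with a coefficient of variation of 3.23%, and the gap to WT was 70.2 CPM. The log2 fold change was -0.84 ± 0.05 (SE), so that KO held 55.7% of the WT mean. Since the transcript compared is the same in both copies, this level may stand for Entpd4 and Entpd4b together. That transcript has 3589 bases, the annotated exons of Entpd4 have 8074, and the rest was not compared.

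Ide codes for insulin-degrading enzyme, a metallopeptidase that also cleaves amyloid-beta. It lies on the minus strand of chromosome 19 at 37268743 to 37334544. Its level was 130 CPM in KO 1 and 93.0, 98.6, 95.4 and 91.7 CPM in KO 2, 3, 4 and 6, against 153, 155 and 161 CPM as lowest, median and highest in WT. KO 1 stood between the other 4 KO libraries and the WT libraries. With all 5 KO libraries the log2 fold change was -0.62 ± 0.07 (SE), and without KO 1 it was -0.72. With the library total as a covariate it was -0.36 ± 0.08, while the covariate left the other 6 genes within 1 SD of their log2 levels. Among those 6, Cd59a moved from 1.34 to 1.09.

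The WT libraries were very alike for Ide, with a coefficient of variation of 1.69%, below the 3.63% that independent counting of reads would give. Wdfy1, at 5.52% against 7.77%, and Gt(ROSA)26Sor, at 8.97% against 9.08%, were also below their counting values in WT. The other 4 genes were above theirs, from 15.1% against 14.5% for Cd59a to 7.07% against 3.17% for Entpd4. With offsets that remove the trend of fold changes with counts per exonic base, Ide in KO 1 was at 129 CPM, against 91.0 to 98.2 CPM in the other KO libraries and 152 to 160 CPM in WT. The position of KO 1 was thus as large with those offsets.

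Fgfbp3 codes for a secreted protein that binds fibroblast growth factors. It lies 349 kb from Ide on the same strand, at 36917550 to 36919599. The KO libraries had 13.9, 11.4, 12.4, 11.1 and 8.56 CPM, against 15.9, 19.7 and 22.3 CPM as lowest, median and highest in WT. KO 1 was again the highest KO library, and KO 6 the lowest. The groups were 2.01 CPM apart, the narrowest gap of the 7 genes, and the counts were 52 to 84 in KO and 74 to 118 in WT. The log2 fold change was -0.78 ± 0.12 (SE). Ide had 8.96 ± 1.12 counts per Fgfbp3 count in KO and 8.01 ± 1.00 in WT (SD), with overlapping ranges.

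Gt(ROSA)26Sor is on the minus strand of chromosome 6 at 113067428 to 113077244. It had 14.1, 15.1, 17.9, 14.5 and 9.22 CPM in the KO libraries, against 21.9, 25.2 and 27.4 CPM as lowest, median and highest in WT. KO 6 was the lowest library, and the groups were 4.05 CPM apart. The log2 fold change was -0.81 ± 0.12 (SE). Thumpd3, whose exons overlap it, was at 33.3 ± 2.64 CPM in KO and 32.2 ± 2.43 CPM in WT (SD), with an edgeR adjusted p of 0.595. Gt(ROSA)26Sor had 0.427 ± 0.0947 counts per Thumpd3 count in KO and 0.779 ± 0.0952 in WT, a ratio that does not depend on library scaling. It holds the level that chose Gt(ROSA)26Sor and is no separate evidence.

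**Figure D1:**
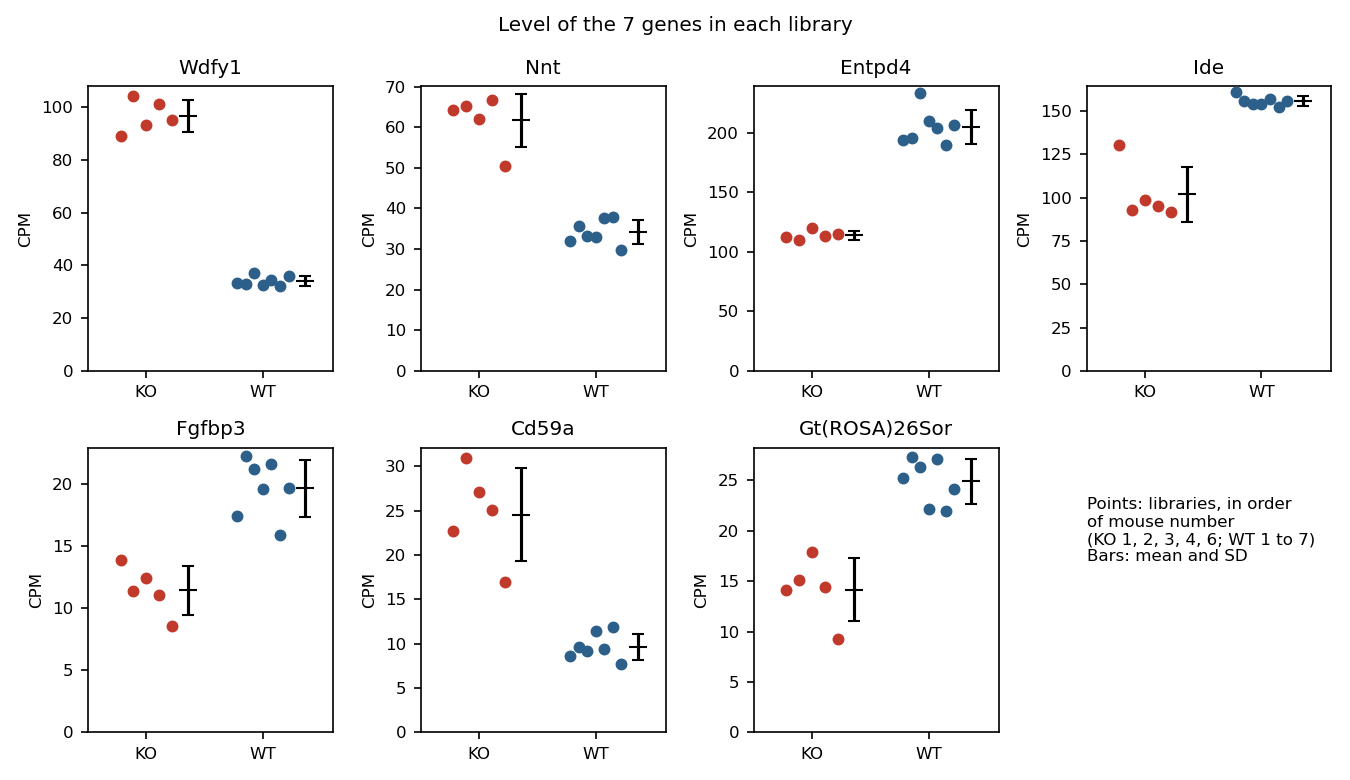
Level in CPM (linear axes from 0) of each of the 7 genes in the 5 KO and 7 WT libraries, 1 point per library, with the mean and SD of each group. No group overlaps the other, Ide in KO 1 (130 CPM) stands between the rest of KO and WT, and KO 6 is low for Nnt (50.4 CPM).

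KO 6 was the lowest KO library for 5 of the 7 genes (Nnt, Ide, Fgfbp3, Cd59a and Gt(ROSA)26Sor), in both directions of difference. Its deviation from the KO mean on the log2 scale was -0.56 for Gt(ROSA)26Sor and -0.49 for Cd59a, but -0.02 for Wdfy1 and 0.01 for Entpd4. Among the KO libraries Wdfy1 and Entpd4 had the smallest deviations, and Cd59a and Gt(ROSA)26Sor the largest. The coefficient of variation in KO was 21.2% for Cd59a and 22.1% for Gt(ROSA)26Sor, against 8.12% and 10.7% from counting alone.

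**Figure D2:**
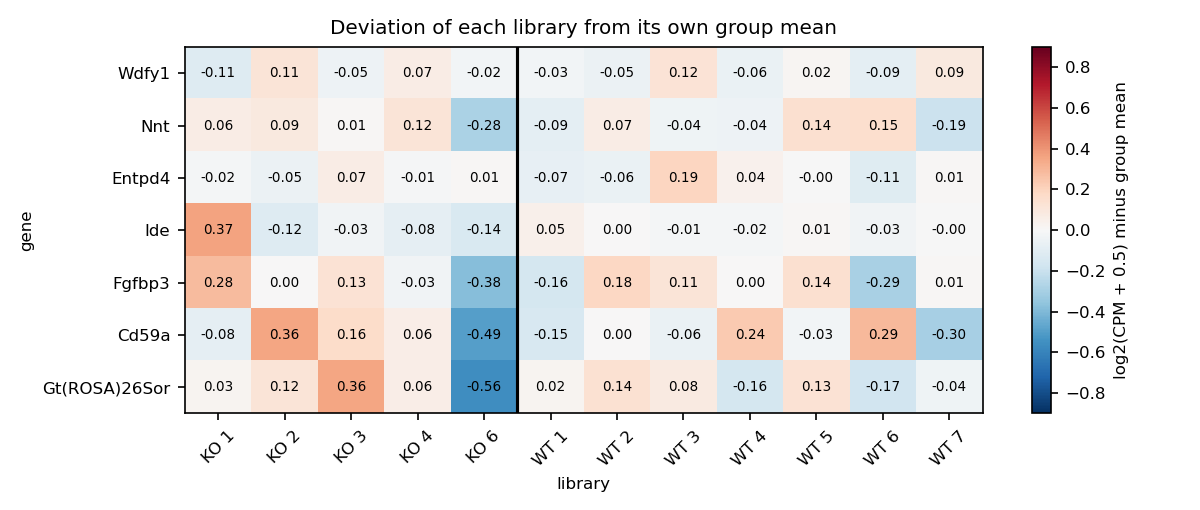
Difference of each library's log2(CPM + 0.5) from the mean of its own group, for the 7 genes (rows) and 12 libraries (columns, KO left of the line, WT right). KO 6 is low for Gt(ROSA)26Sor (-0.56) and Cd59a (-0.49), and KO 1 is high for Ide (0.37) and Fgfbp3 (0.28).

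Within the 7 WT libraries, which the choice of genes did not use against each other, no relation between the levels passed after adjustment. Wdfy1, Ide and Gt(ROSA)26Sor varied no more there than counting would give, so their correlations could show little. Among 28 relations (21 pairs of the genes and 7 of a gene with the log2 library total) Pearson's r ran from -0.71 to 0.78, and 0 passed at a Benjamini-Hochberg adjusted exact permutation p under 0.05, by Pearson or Spearman. Without adjustment 1 relation had p under 0.05 by Pearson and 2 by Spearman. The highest was Wdfy1 with Entpd4, with r = 0.78 (exact permutation p = 0.0308, adjusted 0.698) and rho = 0.61 (p = 0.167, adjusted 0.739). Without the 2 libraries farthest from the Wdfy1 median its r was 0.37. Fgfbp3 with Gt(ROSA)26Sor had r = 0.75 (exact permutation p = 0.0571, adjusted 0.698) and rho = 0.89 (p = 0.0123, adjusted 0.344), and r was 0.42 without 2 libraries. The neighbours Ide and Fgfbp3 had r = 0.07 (exact permutation p = 0.875, adjusted 0.977) and rho = 0.39 (p = 0.396, adjusted 0.739), and r was 0.52 without 2 libraries. KO holds 5 libraries, too few for a correlation.

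Per kilobase of annotated exon, the order of the 7 genes differed between the genotypes. In KO the mean levels were 14.9 CPM per kb for Wdfy1, 14.1 for Entpd4, 13.6 for Ide and 13.6 for Cd59a, then 8.76 for Nnt, 8.35 for Gt(ROSA)26Sor and 6.47 for Fgfbp3. Each gene overlapped the next in that order over the KO libraries. In WT the order was Entpd4 at 25.4 CPM per kb, Ide at 20.7, Gt(ROSA)26Sor at 14.7 and Fgfbp3 at 11.1, each clear of the next, followed by Cd59a at 5.35, Wdfy1 at 5.25 and Nnt at 4.85, which overlapped. Exonic lengths are the union over all annotated transcripts, from 1695 bases for Gt(ROSA)26Sor to 8074 for Entpd4.

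The genes around each locus give a measure that was chosen by position and not by level. Within 1 Mb of the 6 loci, with Ide and Fgfbp3 as 1 locus, 95 neighbours were tested, of which 14 rose and 17 fell with edgeR. That is 32.6%, beside 29.7% of all tested genes, and their median log2 fold change was -0.0052 against 0.034 over all tested genes. With density offsets, which called 19.2% of all genes, 10 of 94 neighbours tested rose and 13 fell. With the library total as a covariate, edgeR called 0 of the 95 (11 at an unadjusted p under 0.05), while DESeq2 without the covariate called 29. Since that total largely follows the genotype, lost power and smaller differences cannot be told apart in the 0 calls.

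Around Wdfy1 none of 8 tested neighbours rose with all 12 libraries. Mrpl44, a mitochondrial ribosomal protein gene whose annotated span meets its own, was at 31.8 ± 2.01 CPM in KO and 33.3 ± 2.65 CPM in WT (SD, edgeR adjusted p = 0.480), and Ap1s3, an adaptor subunit gene on the other side, at 7.07 ± 0.701 CPM in KO and 5.57 ± 1.38 CPM in WT (adjusted p = 0.130). Without WT 4 the log2 fold change of Ap1s3 was 0.44, which passed (edgeR adjusted p = 0.0336). Acsl3, Serpine2 and Scg2 fell, with log2 fold changes of -0.24, -0.20 and -0.19 (edgeR adjusted p = 0.00208, 0.00495 and 0.0426). With density offsets Acsl3 and Scg2 did not pass, at -0.11 and 0.03, and Scg2 had edgeR adjusted p values of 0.0573 to 0.118 without KO 1, 3, 4 or 6 or WT 1, 3, 6 or 7.

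Around Nnt 1 of 11 neighbours rose and 4 fell. The chemokine gene Ccl28 rose, with a log2 difference of 0.93 ± 0.20 (SE, edgeR adjusted p = 0.00407) and 18.5 to 23.1 CPM in 4 KO libraries, 8.07 CPM in KO 6 and 7.71 to 12.05 CPM in WT. KO 6 thus lay inside the WT range for Ccl28 and was also the lowest KO library for Nnt. Paip1, a translation regulator that is the next gene to Nnt, fell by 0.22 on the log2 scale, Hmgcs1, an enzyme of cholesterol synthesis, by 0.28, 3110070M22Rik by 0.81 and Mrps30 by 0.19 (edgeR adjusted p = 0.00419, 0.000756, 0.00999 and 0.0367). Mrps30 had adjusted p values of 0.0529 to 0.0891 without KO 2, 3 or 4 or WT 1, 5, 6 or 7. Fgf10, the nearest tested gene on the other side, had a log2 fold change of 0.20 and did not pass (adjusted p = 0.0996). Nnt had 0.842 ± 0.102 counts per Paip1 count in KO and 0.4003 ± 0.0338 in WT (SD), a ratio that holds the level that chose Nnt.

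Around Entpd4 2 of 15 neighbours rose and none fell. The nearest tested genes on either side, Slc25a37, a mitochondrial iron importer gene, and R3hcc1 did not pass, with log2 fold changes of -0.02 ± 0.06 and 0.11 ± 0.07 (SE, edgeR adjusted p = 0.829 and 0.279). Sorbs3, which codes for the adhesion protein vinexin, rose by 0.26 (adjusted p = 0.00229) and 4930480K23Rik by 0.90 (edgeR adjusted p = 0.00756). 4930480K23Rik had 8.39 to 22.6 CPM in KO, with KO 3 the highest, and 5.81 to 7.78 CPM in WT.

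The segment of chromosome 19 with Ide and Fgfbp3 held low genes beside genes at like levels in both genotypes. Of its 17 tested neighbours 1 rose and 5 fell. 4931408D14Rik, the closest tested gene to Ide, had 3.68 CPM in KO 1 and 0.311, 0.444, 0.615 and 0.988 CPM in KO 2, 3, 4 and 6, against 1.68, 3.64 and 5.60 CPM as lowest, median and highest in WT. KO 1 lay inside the WT range and the other 4 KO libraries below it, at a level of few counts. Its log2 fold change was -1.61 ± 0.46 (SE, edgeR adjusted p = 0.0170) and -1.45 without KO 4 (adjusted p = 0.0504). Without KO 1 it was -2.51 (edgeR adjusted p = 0.000268), a p that follows from leaving out the library that stood apart. The gene did not pass with the mouse number as a block (-1.72, edgeR adjusted p = 0.0808). Nor did it with the library total as a covariate (-0.71, edgeR adjusted p = 0.685). It had no fit with density offsets.

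Hhex, a homeobox transcription factor gene 100.3 kb from Ide, fell by 0.81 on the log2 scale (edgeR adjusted p = 0.0153), at 1.48 to 3.46 CPM in KO and 3.15 to 5.13 CPM in WT. Between Fgfbp3 and Ide, Btaf1, a gene for a TBP-associated ATPase, was at 90.5 ± 8.55 CPM in KO and 95.7 ± 10.7 CPM in WT (SD, adjusted p = 0.444 with edgeR). Cpeb3, a translational regulator gene also between them, did not pass (edgeR adjusted p = 0.103). Marchf5, a mitochondrial ubiquitin ligase gene between them, and Tnks2, next to Fgfbp3, fell by 0.12 and 0.11 on the log2 scale (edgeR adjusted p = 0.0410 and 0.0381), as did Lgi1 by 0.15 (0.0121). Neither Marchf5 nor Tnks2 passed with density offsets, at 0.01 and -0.07. Marchf5 had adjusted p values of 0.0594 to 0.110 without KO 2, 3 or 4 or WT 2, 5, 6 or 7, and Tnks2 of 0.0593 to 0.0863 without KO 2, 3, 4 or 6 or WT 1, 3 or 5. Hectd2 rose by 0.44 (edgeR adjusted p = 0.00349), and Kif11, beyond Ide, was at 0.20 (adjusted p = 0.385). Ide had 1.12 ± 0.137 counts per Btaf1 count in KO and 1.65 ± 0.211 in WT (SD), without overlap. That ratio holds the level that chose Ide and is no separate evidence.

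Cd59b, which adjoins Cd59a, rose with it. It had 24, 29, 25, 25 and 14 counts in the KO libraries, against 4, 8 and 15 as lowest, median and highest in WT. In CPM, WT 2 (2.83) and WT 6 (2.58) lay above KO 6 (2.31). The log2 fold change was 1.09 ± 0.27 (SE, edgeR adjusted p = 0.00713). Cd59a had 6.54 ± 1.12 counts per Cd59b count in KO and 6.16 ± 2.11 in WT (SD), with overlapping ranges. Reads from the stretches behind the 4.26% of Cd59a windows that they share could have been counted for either gene. What part of the low Cd59b counts such reads could make up was not tested. Of 16 tested neighbours 3 rose, Cd59b, Tcp11l1 (0.42) and Abtb2 (0.30), and 2 fell, the translation genes Caprin1 (-0.18) and Eif3m (-0.24). D430041D05Rik, on the other side of Cd59a, was at 0.03 ± 0.07 on the log2 scale (SE, edgeR adjusted p = 0.819). With density offsets Tcp11l1 and Abtb2 did not pass (adjusted p = 0.0746 and 0.133).

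Gt(ROSA)26Sor sits between genes that did not pass. Setd5, a chromatin regulator gene, was at 181 ± 7.69 CPM in KO and 171 ± 17.1 CPM in WT (SD, edgeR adjusted p = 0.328), and Thumpd3 is given above. Of 28 neighbours 7 rose, among them Tatdn2 (0.25), the tubulin ligase gene Ttll3 (0.54), and the DNA repair genes Ogg1 (0.40) and Rad18 (0.42), and 3 fell. Ogg1 and Rad18 did not pass with density offsets (adjusted p = 0.0610 and 0.154), and Rad18 had an edgeR adjusted p of 0.0504 without KO 4.

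**Figure D3:**
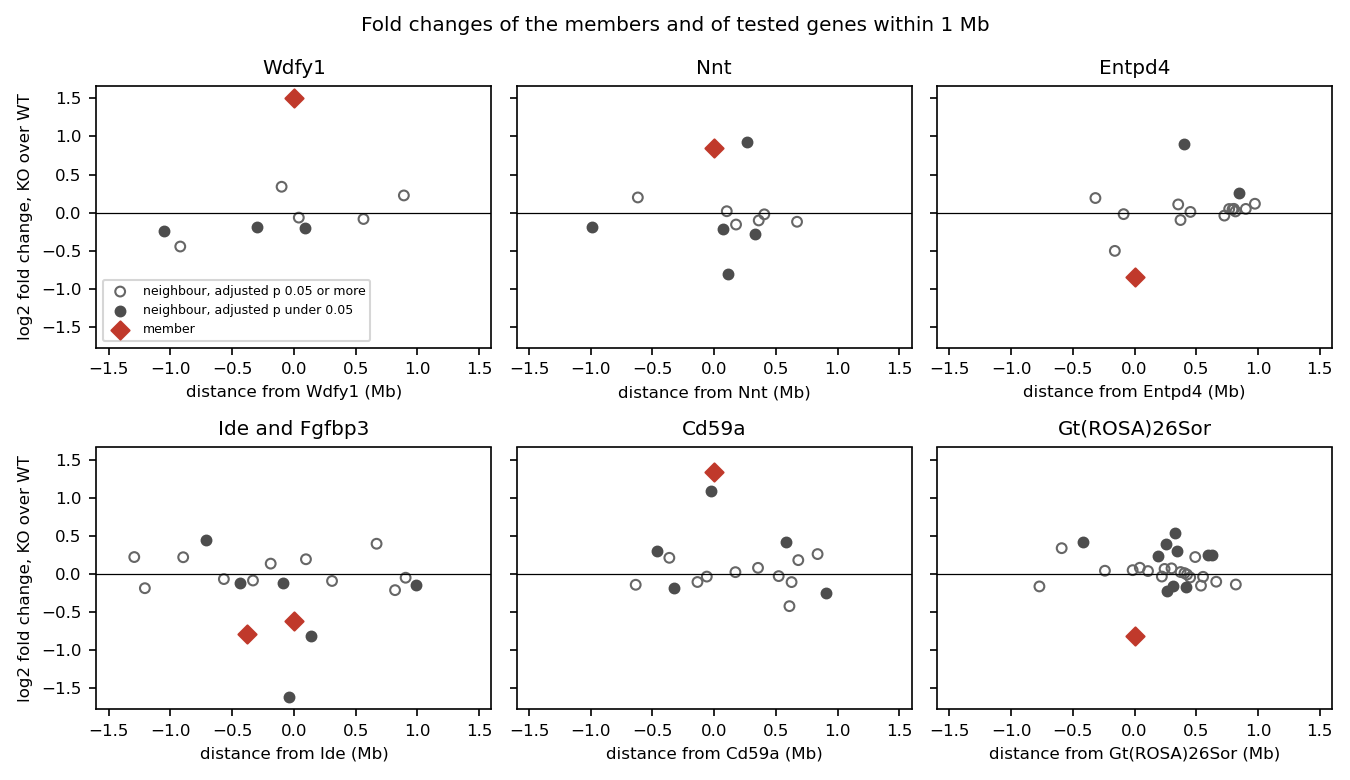
Log2 fold change of KO over WT against the distance between gene midpoints in Mb, for the 7 genes (red diamonds) and the 95 tested genes within 1 Mb of the 6 loci (filled where edgeR's adjusted p is under 0.05). Cd59b (1.09) lies beside Cd59a, 4931408D14Rik (-1.61) beside Ide, and Mrpl44 beside Wdfy1 (-0.07) and Setd5 beside Gt(ROSA)26Sor (0.08) lie near 0.

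Genes related to the 7 by family or pathway were taken as 6 lists with 112 tested genes. With edgeR 19 rose and 18 fell, or 33.0%, beside 29.7% of all tested genes, and the median log2 fold change was 0.058. Density offsets left 9 genes that rose and 10 that fell (17.0%). With the library total as a covariate edgeR called 0 of the 112 (13 at an unadjusted p under 0.05), while DESeq2 without it called 35. The same loss of power with the covariate applies here.

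Of 14 relatives and signalling partners of Wdfy1, 6 rose and none fell (median 0.15). Ripk1 and Traf3, signal transducers downstream of Toll-like receptors, rose by log2 fold changes of 0.44 and 0.27, Wdfy4 by 0.50 and Ticam1, the adaptor of Tlr3, by 0.36 (edgeR adjusted p = 0.00476, 0.00607, 0.00856 and 0.0135). With density offsets 3 of the 14 rose and 0 fell. Of the 4 named, Traf3 alone passed with those offsets (edgeR adjusted p = 0.00919, against 0.0796 for Ripk1, 0.195 for Wdfy4 and 0.0989 for Ticam1). The paralog Wdfy2 did not pass, at 0.39 ± 0.18 (SE, edgeR adjusted p = 0.107).

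Of 20 genes of mitochondrial NADPH supply and peroxide handling, the processes that NNT serves, 2 rose and 6 fell (median -0.11). Aldh1l2, a mitochondrial folate enzyme that makes NADPH, rose by 0.59, while the glutathione peroxidase Gpx4, the superoxide dismutase Sod2 and glutamate dehydrogenase Glud1 fell by 0.27, 0.15 and 0.23 on the log2 scale (edgeR adjusted p = 0.00179, 0.00343, 0.00735 and 0.00762). With density offsets 1 rose and 4 fell, and Glud1 was at -0.07 (adjusted p = 0.242).

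Of 15 nucleotide hydrolases and related genes besides Entpd4, 3 fell and none rose, adenosine kinase Adk (-0.24), Enpp5 (-0.16) and Enpp2, which codes for autotaxin (-0.21; edgeR adjusted p = 0.00341, 0.00491 and 0.0226). With density offsets Adk was the 1 gene of the 15 that passed. Enpp2 had an edgeR adjusted p of 0.0536 without KO 2, 0.0507 without KO 3 and 0.0539 without KO 6.

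Of 17 genes of insulin signalling and of peptidases and the amyloid-beta pathway, 6 rose and 2 fell (median 0.12). Irs2, an insulin receptor substrate, rose by 0.55, the peptidase Ace by 0.36 and Pitrm1, a mitochondrial peptidase of the same superfamily as IDE, by 0.18, and App, the amyloid precursor, fell by 0.29 on the log2 scale (edgeR adjusted p = 0.00166, 0.00501, 0.0102 and 0.00435). All 4 passed with density offsets. App in KO 1 was at 473 CPM, apart from 361 to 392.1 CPM in the other KO libraries, as Ide was, and inside the WT range of 447 to 504 CPM.

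Of 21 fibroblast growth factors, receptors and binding proteins, 1 rose, the signalling inhibitor Spry4 (0.25), and 3 fell, the intracellular factors Fgf12 (-0.26) and Fgf13 (-0.22) and the receptor Fgfr3 (-0.17; edgeR adjusted p = 0.0108, 0.000778, 0.0148 and 0.0161). With density offsets Fgf12 was the 1 gene that passed. Of 25 complement genes 4 rose, Cd59b among them, and 4 fell, clusterin (Clu, -0.33) and the C1q chains C1qa, C1qb and C1qc (-0.28, -0.31 and -0.31; edgeR adjusted p = 0.000815, 0.00532, 0.00577 and 0.00570). C1q is made by microglia in the brain, and the summed level of 6 microglial markers was 392.01 to 423 CPM in KO and 436 to 522 CPM in WT, none of them at 0. Their part in the C1q result was not tested. With density offsets Clu and C1qc passed, and C1qa and C1qb did not (adjusted p = 0.203 and 0.132).

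The genes whose libraries deviated most like those of each member from the group means are given as a description over 12 libraries and 14168 genes. They were Gpr176 and Cfap52 for Wdfy1 (r = 0.89 and 0.88), 9830166K06Rik and Nuf2 for Nnt (0.89 and 0.89), and Emc8 and Cblb for Entpd4 (0.87 and 0.87). Pgrmc1 and Got1 were most like Ide (0.96 and 0.95), Cnga4 and Tsfm most like Fgfbp3 (0.90 and 0.90), Zmat1 and Bche most like Cd59a (0.94 and 0.91), and 3000002C10Rik and Plac9b most like Gt(ROSA)26Sor (0.93 and 0.91). For Ide the 95th percentile of r over all those genes was 0.71, against 0.43 to 0.57 for the other 6. Pgrmc1 and Got1 were themselves highest in KO 1 among the KO libraries, at 164 and 199 CPM.

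**Figure D4:**
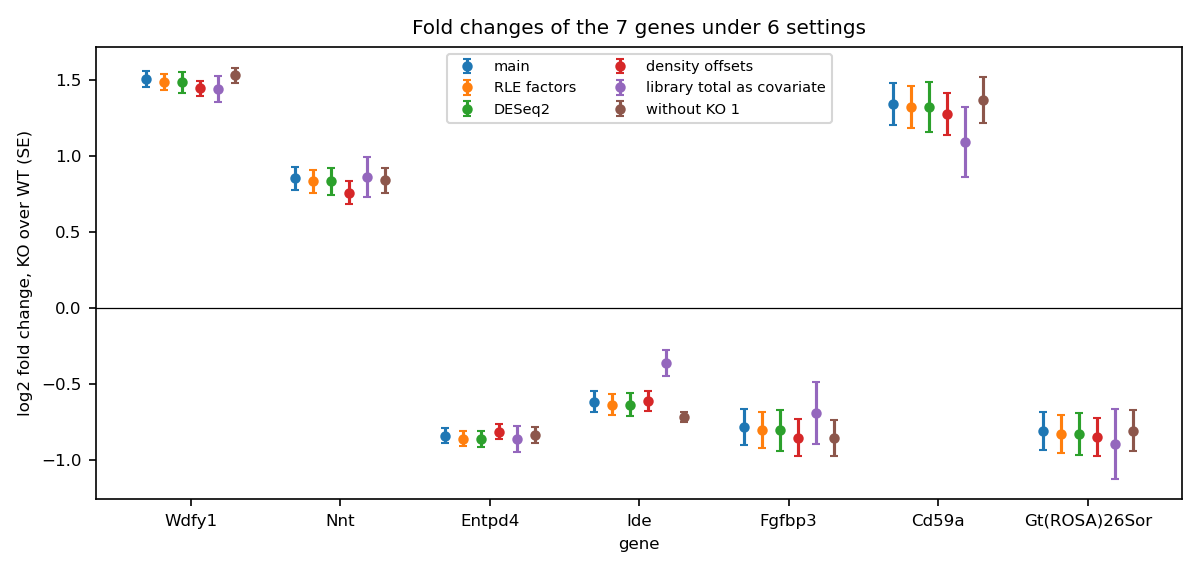
Log2 fold change of KO over WT with its SE for the 7 genes under 6 settings. The direction is the same under each setting shown, which the choice of genes without overlap largely fixes. Ide moves most, from -0.72 without KO 1 to -0.36 with the library total as a covariate.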

How the data were processed

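The deposited table, per the file headers and labels, holds whole-number read counts per gene and library, which the authors neither normalized nor pooled. STAR and mm10 are named, per the submitters' processing notes, and the counter, its strand setting and its handling of reads with several matches are not given in these sources. Groups and mouse numbers came from the sample titles, and 0 count columns were left unused. Nothing says how the mice were bred or batched, and p-values measure the spread between these libraries. The 7 genes and the lists were chosen with earlier results of these data known.

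All 14909 genes were fitted together with edgeR 4.0.16 in R 4.3.3 (filterByExpr, TMM factors, quasi-likelihood test with group as the term, Benjamini-Hochberg adjustment at 0.05), after a check on simulated counts. SEs are the fold change divided by the root of the F statistic. Permutation tests used log2(CPM + 0.5). Gene positions came from RefSeq for GRCm38.p6, by accession for 14820 genes and symbol for 67, and exonic lengths and transcripts from GENCODE M21. Symbols turned into dates (23) were renamed from accessions. Windows of 50 bases from a single transcript of each of the 7 genes were looked up in all annotated transcripts on both strands. Named genes were the 7, Upf3b, the nearest tested neighbours and up to 4 passing neighbours per locus, up to 4 passing genes per list, paralogs, and the 2 genes most alike in deviation with a mean log2 CPM of at least 1. Cpeb3 was added after its values were seen. Alternatives were RLE factors, DESeq2 1.42.0, limma-voom 3.58.1, no filter, the mouse number as a block, the library total as a covariate, density offsets (a lowess of each library's log ratio on counts per exonic base, span 0.3), other windows and pseudocounts, and each library left out. Precision at low counts is limited by counting error, as for Cd59b with 4 to 29 counts.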

Additional observations from a re-analysis of the deposited data

Results flagged for a closer look

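A library was marked where its distance to the nearest other library of its group passed Dixon's 95% critical value. Of 162 gene and group combinations 20 were marked. Chance marks about 1 in 20, but that rate does not hold for genes picked for deviating like another: Pgrmc1 and Got1 were picked for Ide, and Emc8 and Cblb for Entpd4, so their marks follow from the choice.

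Among the 7 genes, Nnt in KO 6 was at 50.4 CPM, below 62.0 to 66.6 CPM in the other KO libraries, and Ide in KO 1 was at 130 CPM, above 91.7 to 98.6 CPM.

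KO 1 stood alone in 8 more: Paip1 at 81.2 CPM, 4931408D14Rik at 3.68, Thumpd3 at 28.6, Gpx4 at 82.0, Sod2 at 165, Glud1 at 221, Enpp5 at 187 and App at 473. Thumpd3 was low there and the other 7 were high. The part of depth in this was not tested, and KO 1 had the lowest KO total, 4990643 counts.

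R3hcc1 was high in KO 3 (47.6 CPM). D430041D05Rik was low in KO 2 (279.9 CPM) and Aldh1l2 high there (17.3 CPM). Spry4 was high in KO 6 (41.7 CPM) and in WT 1 (36.6 CPM). Tcp11l1 was low in WT 2 (12.3 CPM), and 4 genes picked by likeness were marked: Pgrmc1 and Got1 high in KO 1 (164 and 199 CPM), and Emc8 and Cblb high in WT 3 (122 and 48.4 CPM).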

How the results depend on the processing

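The 7 genes kept their direction under every setting run. They were chosen for groups that do not overlap, so this was largely fixed by the choice and is no test. Leaving out each library gave log2 fold changes of 1.48 to 1.53 for Wdfy1, 0.82 to 0.92 for Nnt, -0.86 to -0.81 for Entpd4, -0.72 to -0.59 for Ide, -0.85 to -0.70 for Fgfbp3, 1.24 to 1.45 for Cd59a and -0.91 to -0.69 for Gt(ROSA)26Sor. With the library total as a covariate Ide was at -0.36, the 1 value of the 7 that moved by more than its SD. Cd59a moved from 1.34 to 1.09, within its wider SD, and the cause of these shifts was not tested.

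Mouse numbers did not pair the libraries: same-numbered deviations correlated at -0.38 to 0.14, above 0.1 in 1 of 5 pairs, and 0 KO libraries matched their own number best. With that replicate block 1129 genes were higher and 1186 lower, and 11 neighbours and 18 related genes were called. With density offsets 1358 genes were higher and 19 related genes were called. With the library total, which largely follows the genotype and so lowers power, 84 were higher, 11 lower, and 0 neighbours and 0 related genes were called. Leaving out each library gave 1585 to 2420 higher and 1544 to 2467 lower genes, 21 to 37 neighbours and 27 to 46 related genes. WT correlations that passed numbered 0 to 1, with the 1 without WT 1. Windows of 0.5 and 2 Mb gave 23 of 60 and 42 of 143 neighbours.

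Of 53 named genes called by edgeR, not counting Upf3b and the 7, 52 passed with DESeq2, 29 with density offsets, 27 under the block, 0 with the library total, and 43 with every single library left out in turn. Signs turned with density offsets for Scg2 (0.034), Kif11 (-0.044), Marchf5 (0.014), Thumpd3 (-0.064), Nuf2 (-0.083) and Cnga4 (-0.057), with the library total for Slc25a37 (0.055), Btaf1 (0.042) and Thumpd3 (-0.19), under the block for Slc25a37 (0.0049), and without KO 2 and WT 4 for Cfap52 (-0.065). Leaving out each library gave ranges across 0 for Slc25a37 (-0.050 to 0.0088), D430041D05Rik (-0.012 to 0.088), Emc8 (-0.022 to 0.030), Zmat1 (-0.086 to 0.049) and Bche (-0.16 to 0.065). Of the genes whose sign turned, only Scg2 and Marchf5 were called by edgeR.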
